A study of Homo sapiens with 17 samples.

Results

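H3K4me1, the monomethyl mark on lysine 4 of histone H3, was measured by CUT&RUN in naive and primed pluripotent stem cells (PSCs) of H9 NK2, an established line of human embryonic stem cells, and the change between the cell types was followed along all autosomes. Of 5750013 autosomal tiles of 500 bp, 453776 (7.89%, 227 Mb) had a log2 RPM above 0 in at least 2 of the 5 libraries, and these marked tiles are described here. RPM is reads per 1000000 (1 M) mapped reads, so a log2 RPM of 0 is an RPM of 1 in a tile. The 2 naive libraries came from cells kept in t2iL + PKCi, a medium with the MEK inhibitor PD0325901, the GSK3 inhibitor CHIR99021, human LIF and the protein kinase C inhibitor Gö6983, on Matrigel. The 3 primed libraries came from cells of the same line kept in TeSR-E8 medium on Vitronectin. Both cultures were free of feeder cells and grew in low oxygen. With a single line in 1 naive and 1 primed condition, the cell state cannot be told apart from the medium and the coating.

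H3K4me1 is carried by nucleosomes at enhancers, both active and poised, and on the flanks of promoters, while the nucleosomes next to an active start carry trimethylated H3K4 instead. The methyltransferases KMT2C and KMT2D place most of it at enhancers, so a map of H3K4me1 shows which distal regulatory regions a cell has marked. Naive PSCs resemble the epiblast before implantation and primed PSCs the epiblast after it. In CUT&RUN an antibody directs a nuclease to the mark and only the DNA cut free is sequenced, which keeps the background low.

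The libraries differed in depth, with 21.8 M and 6.74 M mapped reads in the naive and 8.85 M, 7.89 M and 26.6 M in the primed libraries, so that 1 RPM stood for 6.74 to 26.6 reads and a low tile rested on few reads. Over the marked tiles, the naive libraries correlated with each other at r = 0.83 and the primed libraries at 0.67 to 0.86, against -0.31 to -0.18 between cell types. A tile could be marked through the libraries of 1 cell type alone. Such tiles by themselves lower the correlation between cell types, so these values depend on the filter. Primed replicate 2 stood apart from the other primed libraries. Its mean log2 RPM rose from -0.88 in the lowest of 5 equal classes of GC content to 0.28 in the highest, where primed replicates 1 and 3 went from 0.30 and -0.14 to 0.01 and -0.22. Changes are given as naive minus primed on the log2 scale, from limma across all features of a kind, with the threshold at an adjusted p of 0.05.

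Of the marked tiles, 116473 were higher in naive (25.7%) and 119559 were higher in primed PSCs (26.3%), together 52% of the tiles tested, with a median change of 0.05 over all marked tiles. Most of this count came from tiles that the filter passed through 1 cell type alone. Such tiles numbered 113256 for the naive and 143490 for the primed libraries. Among them were 99789 of the 116473 tiles higher in naive and 110178 of the 119559 higher in primed PSCs. A tile marked in naive PSCs alone needed both naive libraries, while one marked in primed PSCs alone needed any 2 of 3. Of the 143490 primed tiles, 67775 were above 0 in all 3 primed libraries and 75715 in 2 of them. The counts of the 2 cell types are therefore not on equal terms. Of the 197030 tiles marked in both cell types, 8.47% were higher in naive and 4.76% in primed PSCs, and of the 62831 tiles above 0 in all 5 libraries 3.71% and 4.45%. The distance, gene context, listed fragments and Alu word are therefore also given as levels of all tiles, which no filter touched. The other counts of tiles, domains and promoters below rest on filtered features.

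The change depended on the distance from genes. Between 2000 and 20000 bp from the nearest start of a protein-coding transcript, marked tiles were more often higher in naive PSCs, and beyond 50000 bp they were more often higher in primed PSCs. At 5000 to 10000 bp 34.5% were higher in naive and 19.8% in primed PSCs, with a median change of 0.46. At 200000 to 500000 bp the shares were 13.8% and 47.1%, with a median change of -1.18. Within 500 bp of a start, only 9.21% and 12% changed. The level was highest there, with a mean RPM over all tiles of 0.650 and 0.656 in the naive and 0.724, 0.691 and 0.529 in the primed libraries, which overlapped.

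Levels of all tiles, with no filter, were compared at the same distances. From 5000 to 10000 bp, the mean RPM per tile was 0.369 and 0.429 in the naive and 0.343, 0.327 and 0.299 in the primed libraries. Every naive library lay above every primed library at this distance. From 200000 to 500000 bp it was 0.151 and 0.20 in the naive and 0.249, 0.220 and 0.196 in the primed libraries. There naive replicate 1 lay lowest, and naive replicate 2 fell between primed replicates 3 and 2, so the groups overlapped. The two-sided exact permutation test gave p = 0.1 for the nearer and p = 0.3 for the farther distance, and 0.1 is the smallest p that 2 against 3 libraries allow. Over all 72 values compared per library the smallest adjusted p was 0.655, so no such value could pass a correction.

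**Figure D1:**
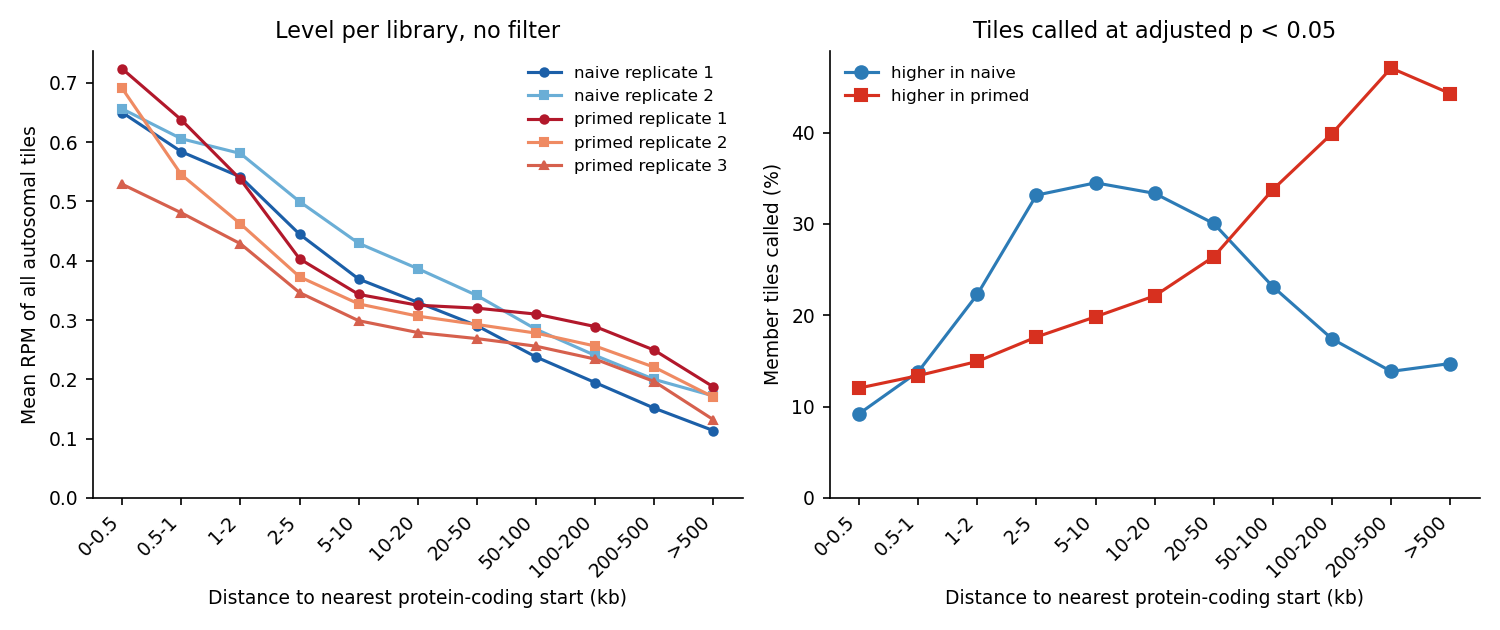
H3K4me1 by distance to the nearest protein-coding start in kb. The left panel plots the mean RPM per 500 bp tile over all autosomal tiles, with a line for each library, and the naive lines lie above the primed lines between 2 and 20 kb. The right panel plots the percentage of marked tiles called higher in naive (blue) or in primed PSCs (red), which cross between 20 and 100 kb.

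By gene context, marked intergenic tiles had medians on opposite sides of 0 by their distance to a gene. Intergenic tiles within 50000 bp of a protein-coding start had a median change of 0.75, with 40.5% of 61328 higher in naive and 17.4% in primed PSCs. Intergenic tiles farther away had a median of -0.41, with 21.5% of 52415 higher in naive and 36.4% in primed PSCs. Introns of protein-coding genes held most of the marked tiles (231101, 50.9%), and their median change was 0.00. Promoter tiles, within 1000 bp of a start, changed least often, with 11.1% higher in naive and 12.6% in primed PSCs. Exons had a median of 0.21, and genes that do not code for protein had a median of -0.16.

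Per library, the near intergenic tiles took 14.4% and 14% of the autosomal signal in the naive and 10.7%, 11.8% and 11.3% in the primed libraries. The groups did not overlap (exact permutation p = 0.1). Far intergenic tiles took 16.5% and 19.3% in the naive and 20.3%, 21.2% and 18.7% in the primed libraries, where the groups overlapped (exact permutation p = 0.3). Genes that do not code for protein took 12.8% and 13.1% in the naive and 13.9%, 14% and 13.8% in the primed libraries, also without overlap. Promoter tiles took 5.92% and 5.00% in the naive and 5.48%, 5.48% and 5.01% in the primed libraries, which did overlap. The median changes of near and far intergenic tiles stayed on their sides of 0 after correction for GC content, at 0.68 and -0.44.

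Most of the marked tiles, 336187 or 74.1%, lay outside every HindIII fragment listed as an end of a promoter interaction in the PCHi-C data of either cell type. Tiles in no listed fragment had a median change of -0.04, with 25.7% higher in naive and 29.3% in primed PSCs. Tiles inside a listed fragment had a median of 0.24, with 25.6% and 17.8%. The listed fragments took 22.1% and 20.2% of the signal in the naive and 18.5%, 18.6% and 18.9% in the primed libraries, with no overlap (exact permutation p = 0.1). The contexts differed in this respect. Near intergenic tiles had high medians both outside (0.81) and inside (0.63) listed fragments, whereas far intergenic tiles stood at -0.50 outside and 0.03 inside them. The fragments were listed from interactions of these same 2 cell types, so they are not a set chosen apart from them.

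Sequence content also differed between the directions. The word GTAATCCCA on either strand, 9 letters of the consensus of the Alu retrotransposon, a primate repeat that is densest near genes, was in 10.5% of all marked tiles, in 22.2% of those higher in naive and in 3.19% of those higher in primed PSCs. It was looked for after the shorter word TAATCC, which OTX factors bind and which lies inside it, had been found in 39.2% of the tiles higher in naive against 19.9% of those higher in primed PSCs and 26.9% of all. Outside the Alu word, TAATCC was in 22%, 17.3% and 18.7%. Marked tiles with the Alu word had a median change of 1.60, and those without it a median of -0.09.

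Over all 670118 autosomal tiles with the Alu word, marked or not, the mean RPM was 0.307 and 0.384 in the naive and 0.217, 0.236 and 0.198 in the primed libraries. The naive libraries were all above the primed ones (exact permutation p = 0.1). Over the tiles without it the means were 0.254 and 0.301 in the naive and 0.321, 0.287 and 0.259 in the primed libraries, which overlapped. Without the Alu word, near intergenic tiles kept a median of 0.44 and far intergenic tiles one of -0.52, and all tiles 5000 to 10000 bp from a start had means of 0.366 and 0.418 in the naive and 0.373, 0.346 and 0.319 in the primed libraries, which overlapped. How reads that fit many copies of a repeat were placed was not tested.

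**Figure D2:**
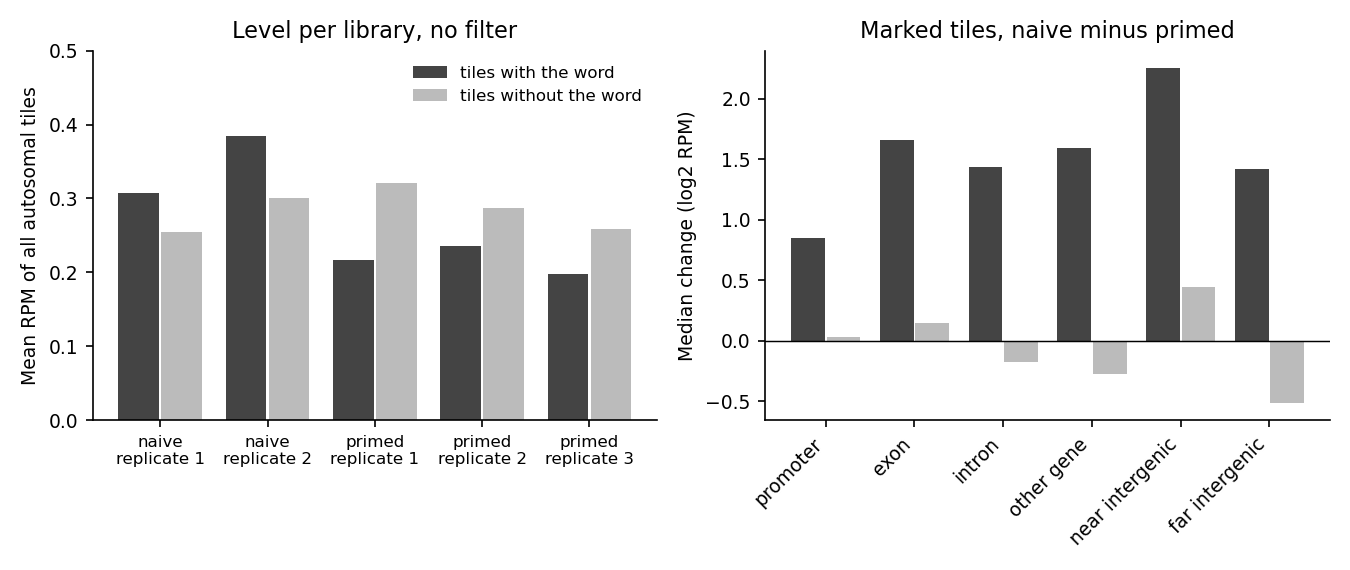
Tiles with and without the 9-letter Alu word. The left panel plots the mean RPM over all autosomal tiles in each library, where tiles with the word (dark) stand above tiles without it (light) in the naive libraries and below it in the primed libraries. The right panel plots the median change of marked tiles in each gene context as log2 RPM, naive minus primed, with higher values for tiles with the word in every context.

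Words of other factors differed less. The KLF word CCNCNCCC was in 42.7% of the tiles higher in naive and 32.0% of those higher in primed PSCs, beside 39.5% of all. Tiles with the Alu word can hold the KLF word too, and it was not counted without those tiles. The word CAGCAGG of the ZIC factors, which are made in primed PSCs, was in 11.2%, 17.3% and 14.5% of these tiles. The octamer ATGCAAAT of POU factors such as OCT4 was in 4.10%, 5.45% and 4.93%, and the SOX word ACAAAGG in 9.73%, 11.7% and 10.7%. The AP-2 word GCCNNNGGC was in 12%, 11.2% and 13.2%. Each word was counted on both strands, and words may overlap each other. Tiles higher in naive PSCs had a mean GC content of 45% and those higher in primed PSCs one of 44.2%, beside 45.4% of all marked tiles.

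Sequences are shown for tiles near the 2 genes with the most tiles higher in primed PSCs, to make the ZIC word visible in place. For each gene, the tile is that with the largest change among its called tiles that hold the word. The 300 bases are GRCh38, forward strand, 5′ to 3′, and the capitals mark the word on either strand (CAGCAGG, here as its reverse complement).
FAT3 tile, chr11:92537001-92537300: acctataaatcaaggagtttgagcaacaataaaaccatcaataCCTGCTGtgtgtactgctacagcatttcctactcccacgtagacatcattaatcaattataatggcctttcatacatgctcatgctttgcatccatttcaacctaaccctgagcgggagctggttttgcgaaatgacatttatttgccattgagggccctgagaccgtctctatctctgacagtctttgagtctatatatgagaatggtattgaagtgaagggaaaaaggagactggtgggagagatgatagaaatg
TCF4 tile, chr18:55425701-55426000: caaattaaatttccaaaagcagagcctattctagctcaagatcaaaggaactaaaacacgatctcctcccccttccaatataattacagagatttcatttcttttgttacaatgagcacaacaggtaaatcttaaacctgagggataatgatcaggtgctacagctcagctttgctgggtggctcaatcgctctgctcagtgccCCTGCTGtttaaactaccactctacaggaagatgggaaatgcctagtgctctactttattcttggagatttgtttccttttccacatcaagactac

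The FAT3 tile, in an intron 312433 bp downstream, held 1 and 0 reads in the naive and 24, 17 and 68 in the primed libraries. The TCF4 tile, in an intron 162441 bp downstream, held 1 and 0 in the naive and 33, 9 and 61 in the primed libraries. They were chosen among called tiles that passed the filter through the primed libraries alone, so their difference is a description. The file gives an empty tile the value of 0.9 reads, so the log2 change of such a tile depends on depth and is not printed.

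Each marked tile was counted for the protein-coding gene with the nearest start. The genes with the most tiles higher in naive PSCs were SOX4, KLF5, KLF4, YPEL2 and KMT2C. KLF5 and KLF4, zinc finger factors of the naive network, had 198 of 249 and 181 of 283 tiles higher in naive PSCs. KMT2C, a writer of the mark, had 157 of 227 and none higher in primed PSCs. SOX4 had 206 of 610 and 32 higher in primed PSCs. Of its tiles called in either direction, 206 lay over 50000 bp from its start.

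In the other direction came FAT3, a large cadherin, with 336 of 356 tiles, TCF4, an E-box factor, with 313 of 395, ZNF608 with 278 of 471, the cell adhesion molecule NTM with 273 of 292 and the teneurin TENM3 with 269 of 397. For KLF5 the median log2 RPM over its marked tiles was 0.91 and 0.83 in the naive and -1.56, -1.98 and -1.73 in the primed libraries. For FAT3 it was 1.02, 0.19 and 0.62 in the primed libraries, while in naive replicate 2 the median tile was empty and its value is set by depth. The stretches nearest to these genes ran from 0.173 Mb (YPEL2) to 0.882 Mb (SOX4) among the first 5 and from 0.840 Mb (TCF4) to 2.74 Mb (TENM3) among the second, and a longer stretch can hold more tiles. Of the 17004 genes with a marked tile, 11841 had 1 or more tiles higher in naive, 9312 had 1 or more higher in primed PSCs and 6285 had both.

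Marked tiles were joined into domains across gaps of at most 1 tile, which gave 131209 domains. Of these, 39053 were higher in naive (29.8%) and 42198 higher in primed PSCs (32.2%), together 61.9% of the domains tested. The share higher in primed PSCs fell with width, given here as a description. A tile marked in 1 cell type alone entered on any 2 of 3 primed libraries, but only on both naive ones. How far this rule shaped the fall was not tested. Among the 42613 domains of a single tile 30.4% were higher in naive and 34.0% in primed PSCs, while among the 1352 domains over 10000 bp the shares were 28.3% and 19.8%. The median change went from -0.05 in the narrowest to 0.18 in the widest class. The widest domains lay in introns of protein-coding genes more often (66.3% by their middle) than domains of a single tile (45.3%), and less often in far intergenic DNA (3.33% against 16.0%).

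Formed in each library on its own from tiles above 0, domains had a mean width of 1803 and 1739 bp in the naive and 1729, 1294 and 1630 bp in the primed libraries. Those over 5000 bp made up 5.25% and 5.40% in the naive and 4.52%, 2.08% and 3.82% in the primed libraries. The naive libraries were above the primed ones in both measures (exact permutation p = 0.2 each), with primed replicate 2, the library that stood apart, the lowest. With tiles above 1 as the marked level the groups overlapped, at 1.11% and 0.623% in the naive and 1.53%, 0.329% and 1.08% in the primed libraries. The median width was 1000 bp in all 5 libraries at the level of 0.

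**Figure D3:**
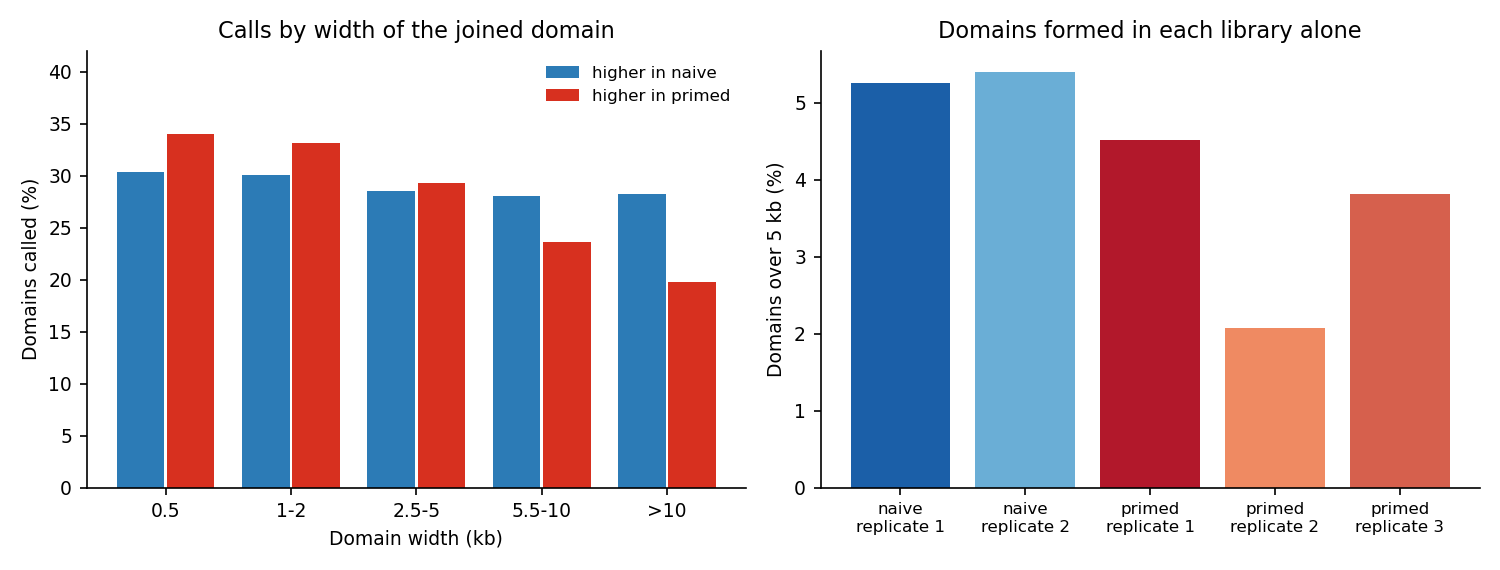
Domain width. The left panel plots the percentage of domains called higher in naive (blue) or primed PSCs (red) in 5 classes of width, where the red bars fall from 34.0% to 19.8% and the blue bars stay near 30%. The right panel plots for each library the percentage of its own domains that were over 5 kb, from 2.08% to 5.40%.

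The domains with the largest changes, among those with a mean log2 RPM above 0 over all libraries, lay away from promoters. Near LTBP2, a latent TGF-β binding protein, a 9000 bp intronic domain (chr14:74562501-74571500) stood at 1.78 and 1.74 log2 RPM in the naive and -1.49, -0.55 and -1.15 in the primed libraries, a change of 2.83 ± 0.41 (SE). Domains of 500 or 1000 bp near TPTE, KANK4, SPTBN5 and C9orf152 changed by 3.21, 3.0, 2.86 and 2.76. The TPTE domain lay 2282332 bp from that start and rested on a single tile. In the other direction, a 1500 bp domain 110889 bp upstream of PRRC1, in an intron (chr5:127406001-127407500), stood at -2.86 and -2.05 in the naive and 2.08, 1.48 and 1.51 in the primed libraries, a change of -4.14 ± 0.42. Domains nearest to SEMA3F (-3.74), FEZ1 (-3.73), RPS24 (-3.60) and OMA1 (-3.57) followed. These 10 were chosen among called domains whose groups do not overlap and whose mean over all libraries was above 0. That last rule can leave out domains with larger changes. A domain built from tiles marked in 1 cell type alone had to differ, so the sizes of these 10 are a description.

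The widest domains called were at other genes. Those higher in naive PSCs were at XPO7 (46500 bp), PLPP1 (37000 bp), DNAJC15 (37000 bp), KLRG2 (31500 bp) and ABCA1 (29500 bp), all with their middle in an intron and with changes of 1.16 to 2.33. Those higher in primed PSCs included 2 neighbouring domains in introns at IGF1R, the receptor of insulin-like growth factor 1, of 35500 and 31000 bp (changes of -1.75 and -1.69). The domain over SIX3, a homeobox gene of the forebrain, covered 34000 bp including the promoter and changed by -1.07 ± 0.32, and that at ZIC4 covered 32500 bp and changed by -1.11 ± 0.35. The call was lost without naive replicate 2 at SIX3 (limma adjusted p = 0.095) and at ZIC4 (0.156), and without primed replicate 3 at ZIC4 (0.057). At PLPP1 and ABCA1 it was lost without either naive library (0.064 to 0.073 and 0.063 to 0.132). The last, of 29500 bp, lay nearest to ENSG00000284686, and its call was lost without naive replicate 2 (limma adjusted p = 0.054).

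For a view by gene, the mean RPM within 50000 bp to each side of the canonical start, called the locus here, was compared for all 19111 autosomal protein-coding genes with no filter. Of these loci, 7118 were higher in naive (37.2%) and 1970 higher in primed PSCs (10.3%), together 47.6%, with a median change of 0.31. The size of this lean to naive changed with the scale. After quantile normalization the median was 0.00 with 4801 and 4739 loci higher, and after correction for GC content it was -0.01 with 5762 and 5734. Both methods level the libraries over these same loci. A median near 0 therefore follows from them and does not test the lean. With the median of the marked tiles set equal, a scale not taken from the loci, it was 0.20 with 2706 and 1117. Changes of gene lists are therefore read against the median of 0.31, and their counts against 37.2% higher in naive and 10.3% in primed PSCs, or, with GC correction, against 5762 and 5734 of 19111 loci.

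Promoters, the mean RPM within 2500 bp to each side of the start, were above 0 in 2 or more libraries for 4225 genes, of which 1072 were higher in naive (25.4%) and 575 higher in primed PSCs (13.6%), together 39%. A promoter that passed this filter through 1 group alone had to differ, so these counts are of the promoters tested, not of all genes. With quantile normalization these were 1072 and 1020, with GC correction 986 and 1010, and with the median set equal 1015 and 752. Quantile normalization and GC correction level the libraries over these same promoters, so a near-even split follows from them. Of 1322 genes called in both fits, 1305 changed in the same direction and 17 in opposite directions.

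Among the promoters, the largest increases in naive PSCs were at NLRC4, CIDEC, NCR1, C2orf16 and MSLN. NLRC4, an inflammasome protein (start at chr2:32264886), stood at 0.81 and 1.13 in the naive and -2.47, -2.78 and -3.50 in the primed libraries, a change of 3.89 ± 0.28. The largest in the other direction included TRPM3, TBX15, KLHDC7A and SERPINA11. TRPM3, a cation channel (start at chr9:71121621), stood at -3.11 and -2.46 in the naive and 1.55, 0.48 and 0.99 in the primed libraries, a change of -3.79 ± 0.33. In neither gene did the groups overlap, as the rule that named them required.

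Among the loci, TRIM60 and TRIM75, neighbours on chromosome 4 (starts at chr4:165031999 and 165053866) whose windows overlap, changed most, by 3.22 ± 0.23 and 3.19 ± 0.23. NLRP7 and NLRP2, genes of the maternal oocyte programme, share 1 window on chromosome 19 and therefore 1 value, 3.15 ± 0.23. The window stood at -0.28 and 0.12 in the naive and -3.25, -2.82 and -3.62 in the primed libraries, and all 49 of its marked tiles were higher in naive PSCs. SNW1 on chromosome 14 followed at 2.80. FAT3 (start at chr11:92224818) changed by -2.84 ± 0.23, and SPATS2L, the receptor tyrosine kinase ROR1, AMOTL1 and the adenylyl cyclase ADCY2 by -2.39, -2.35, -2.32 and -2.29.

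The labels of the cells were checked against lists of marker genes. Of 20 naive markers, 18 loci were higher in naive and 1 in primed PSCs, with a list median of 1.58, and ALPP was not called. TFCP2L1, a factor of the naive network (start at chr2:121285202), stood at -0.30 and -0.29 in the naive and -2.54, -1.95 and -2.67 in the primed libraries, a change of 2.09 ± 0.22 (limma adjusted p = 3.43e-18). Of the 51 marked tiles in its window, 46 were higher in naive and none in primed PSCs. KHDC1L and KHDC3L changed by 1.99 and 1.90, and KLF5 and KLF4 by 2.00 and 1.90. The exception was ESRRB, an orphan nuclear receptor used as a naive marker in mouse cells, at -1.85 and -1.55 in the naive and -0.90, -0.69 and -0.97 in the primed libraries (-0.85 ± 0.23). Of the 10 promoters of this list that were tested, 6 were higher in naive, none in primed PSCs and 4 were not called.

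Of 20 primed markers, 10 loci were higher in primed and 1 in naive PSCs, with a median of -0.64. SALL1 changed by -1.55 ± 0.23, THY1, a surface marker of primed PSCs, by -1.50 ± 0.23 and NEFL by -1.28 ± 0.22. THY1 (start at chr11:119423172) stood at -2.28 and -1.76 in the naive and -0.45, -0.42 and -0.68 in the primed libraries, and 38 of the 45 marked tiles in its window were higher in primed PSCs. CD24 went the other way, at 0.70 ± 0.23, and was not called with quantile normalization. OTX2, a homeobox factor of the primed state, had a locus change of 0.03 ± 0.21 and a promoter change of -0.10 ± 0.28, neither past the threshold. Of the 12 promoters of this list that were tested, 3 were higher in primed and none in naive PSCs. The other 9 were not called, and the promoter median was -0.26.

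**Figure D4:**
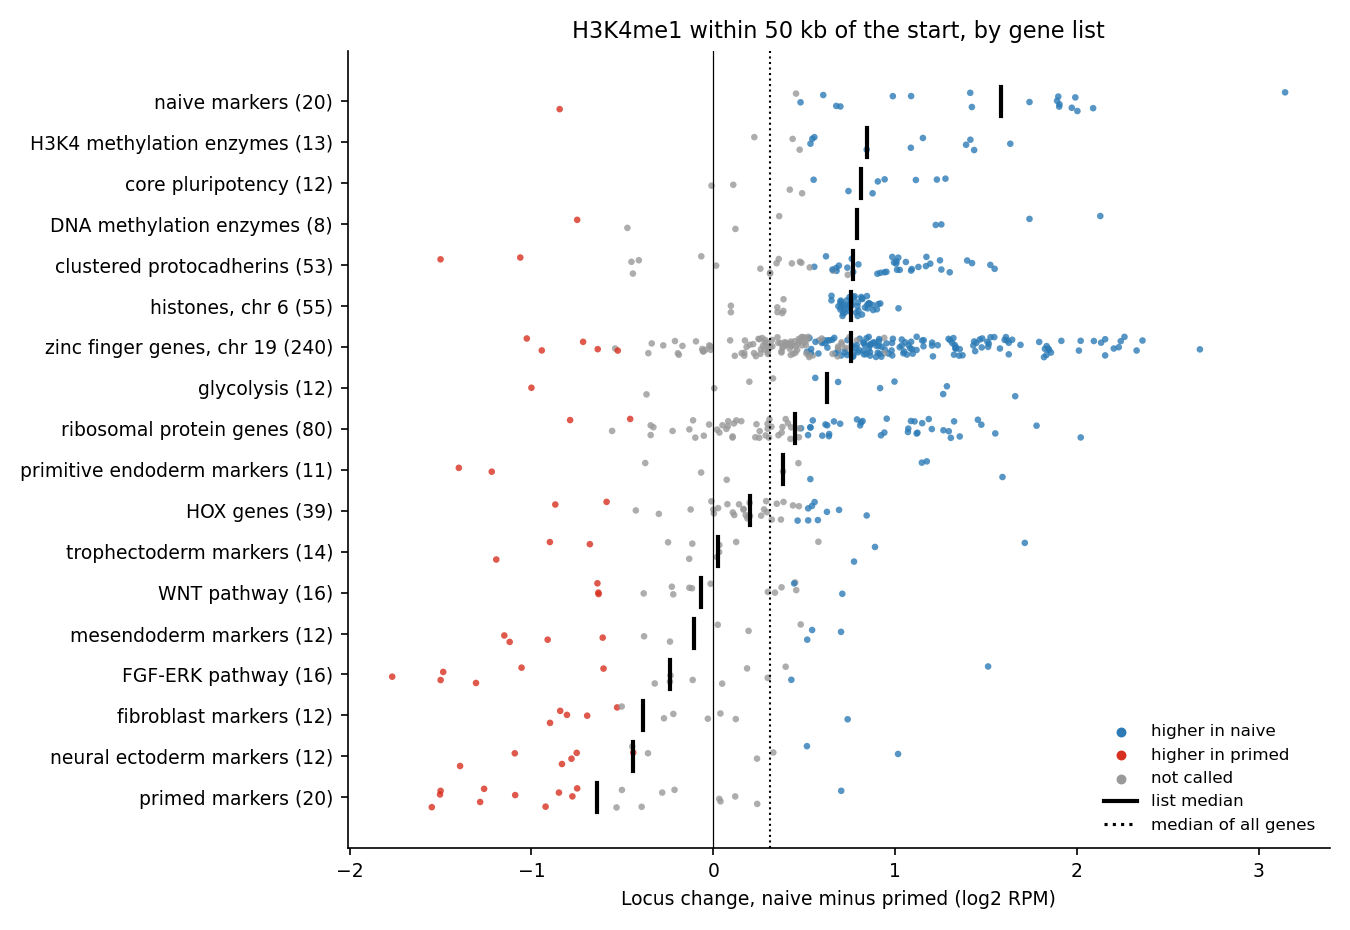
Locus change of each gene in log2 RPM, naive minus primed, by gene list with the number of genes in brackets. Points are genes, blue where higher in naive, red where higher in primed PSCs and grey where not called, the bar is the list median and the dotted line the median of all genes at 0.31. The naive markers have the highest list median (1.58) and the primed markers the lowest (-0.64).

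The core pluripotency genes, in use in both states, were compared over their loci and at their starts. Of 12 loci, 8 were higher in naive and none in primed PSCs (median 0.81). These were 6 and none with GC correction, and 4 and 1, TDGF1, with quantile normalization. Of the 9 promoters tested, 3 were higher in naive (25.4% over all promoters tested) and none in primed PSCs. The median change of these promoters was -0.11, beside 0.23 over all promoters tested. PRDM14 changed by 1.28 ± 0.20 over its locus and by -0.42 ± 0.31 at its promoter, and the latter did not pass. SOX2 stood at 0.28 and 0.04 in the naive and 0.52, -0.43 and 0.05 in the primed libraries over its locus (0.11 ± 0.17), short of the threshold, while its promoter was higher in naive PSCs by 0.80 ± 0.33. POU5F1, which encodes OCT4, had a locus change of 0.42 ± 0.19, also short of it. DPPA2, at 0.88, was no longer called with quantile normalization or GC correction.

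Of 8 enzymes of DNA methylation, 4 loci were higher in naive (50%, beside 37.2% of all loci) and 1 in primed PSCs (12.5%, beside 10.3%). With so few genes, these counts stood near the shares over all loci. With GC correction they were 4 and 2, beside 5762 and 5734 of 19111 over all loci. TET2 and TET1, which oxidise methylcytosine, changed by 2.13 ± 0.22 and 1.22 ± 0.21. DNMT3L, the cofactor of the de novo enzymes, changed by 1.74 ± 0.23, and UHRF1, which guides maintenance methylation, by 1.25 ± 0.22. DNMT3B, a de novo methyltransferase, stood at -0.41 and -0.22 in the naive and 0.61, 0.37 and 0.31 in the primed libraries (-0.75 ± 0.17), with 58 of 107 marked tiles higher in primed PSCs. Among 13 genes that write, read or remove H3K4 methylation, 10 loci were higher in naive and none in primed PSCs (7 and none with GC correction), led by KMT2C (1.63 ± 0.22), DPY30 (1.43 ± 0.23), WDR5 (1.41 ± 0.23) and the demethylase KDM5B (1.39 ± 0.21).

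The FGF-ERK pathway is the one that the MEK inhibitor of the naive medium blocks. Of its 16 loci, 6 were higher in primed and 2 in naive PSCs, with a median of -0.24, and with GC correction these were 10 and 1. Of its 10 promoters tested, 1 was higher in naive and none in primed PSCs, with a median of 0.17. The largest locus changes were at feedback inhibitors. SPRED1 (start at chr15:38252836) stood at -2.75 and -2.31 in the naive and -0.35, -1.23 and -0.72 in the primed libraries (-1.77 ± 0.23), and 35 of its 37 marked tiles were higher in primed PSCs. DUSP6, an ERK phosphatase, and SPRY4 changed by -1.50 ± 0.23 and -1.49 ± 0.22, while their promoters, at 0.22 ± 0.32 and -0.39 ± 0.29, did not pass. The DUSP6 promoter stood at -0.91 with 5000 bp to each side. The receptor FGFR3 went the other way, at 1.51 ± 0.23. In the WNT list of 16 genes, 2 loci were higher in naive (FZD5 at 0.71, and WNT3) and 3 in primed PSCs (WNT5A, FZD7 and TCF7L1 at -0.64 to -0.63), and TCF7L1 turned to 0.18 with 20000 bp to each side. With GC correction none was higher in naive and 6 in primed PSCs, beside 5734 of 19111 over all loci. Of 12 genes of glycolysis, 7 were higher in naive and 1, HK1 at -1.0 ± 0.20, in primed PSCs (5 and 3 with GC correction).

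Genes of lineages that neither culture should contain were marked in a way that differed by gene. Of 14 trophectoderm markers, 3 loci were higher in naive and 3 in primed PSCs (median 0.03), and with GC correction 3 and 6 (median -0.41). TFAP2C, a factor that naive PSCs share with trophectoderm (start at chr20:56629306), stood at 0.55 and 0.64 in the naive and -1.03, -1.10 and -1.21 in the primed libraries (1.71 ± 0.20), with 93 of 126 marked tiles higher in naive PSCs and a promoter change of -0.33 ± 0.30 that did not pass. GATA3 changed by -1.19 ± 0.22. Of 11 primitive endoderm markers, 4 were higher in naive (36.4%, near the 37.2% of all loci), among them GATA6 (1.59 ± 0.23) and HNF4A (1.15 ± 0.23), and 2 in primed PSCs, FOXA2 (-1.40 ± 0.23) and COL4A1 (-1.22 ± 0.23), against 4 and 5 with GC correction. At the HNF4A promoter, the naive libraries stood at 0.23 and 0.94 and the primed ones at -2.96, -2.76 and -2.98, a change of 3.49 ± 0.26.

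Of 12 neural ectoderm markers, 6 loci were higher in primed PSCs, 2 in naive and 4 were not called (median -0.44; 8 and 2 with GC correction, 8 and 1 with quantile normalization). SIX6 changed by -1.39 ± 0.23 over its locus and by -1.91 ± 0.33 at its promoter. Of 12 mesendoderm markers, 4 were higher in primed and 3 in naive PSCs (7 and 1 with GC correction), and CER1, an inhibitor of Nodal and BMP, changed by -3.32 ± 0.30 at its promoter, with -3.60 and -2.49 in the naive and 0.66, -0.29 and 0.46 in the primed libraries. Of 12 fibroblast markers, 5 loci were higher in primed PSCs, COL1A2 (-0.90), PRRX1 (-0.84) and POSTN (-0.80) among them, and 1, S100A4 at 0.74, in naive. With GC correction these were 6 and none, and S100A4 was not called. With 20000 bp to each side S100A4 stood at -0.056. The list median stood at -2.84 and -2.36 in the naive and -1.78, -1.88 and -2.05 in the primed libraries. Whether cells of another type were in a culture was not tested.

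**Figure D5:**
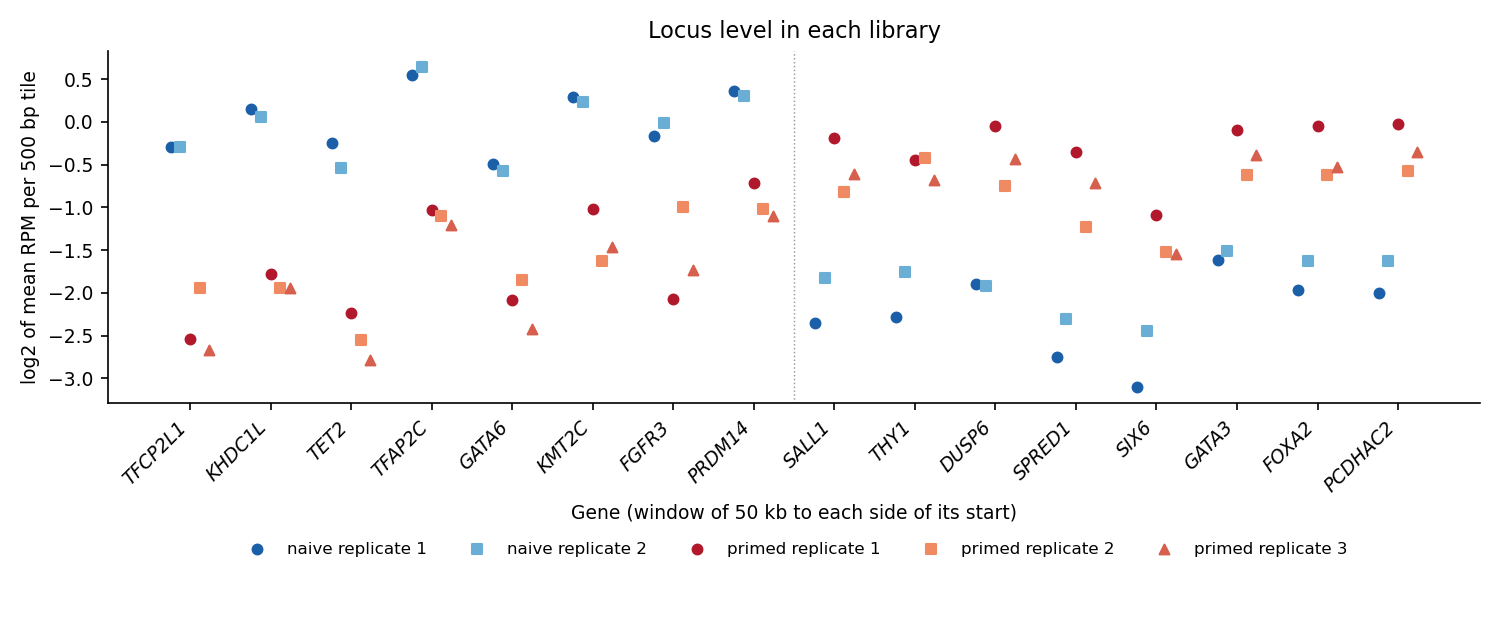
Locus level of 16 genes in each library, as the log2 of the mean RPM per 500 bp tile within 50 kb to each side of the start, with the genes higher in naive left of the dotted line and those higher in primed PSCs right of it. Circles, squares and triangles are replicates 1, 2 and 3, and in each of these genes the naive (blue) and the primed (red) libraries do not overlap.

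Clustered gene families moved over large stretches, and their genes share windows, so the counts are not of separate events. Of 55 replication-dependent histone genes on chromosome 6, 48 loci were higher in naive and none in primed PSCs (median 0.76), but with quantile normalization only 4 were called. Of 240 zinc finger genes on chromosome 19, 138 were higher in naive and 5 in primed PSCs (median 0.76), with ZNF875 at 2.36 ± 0.24 and ZNF536 at -1.03 ± 0.22 (124 and 22 with GC correction). On that chromosome the tiles that were not marked also stood higher in naive PSCs. With the level of each chromosome set equal, 67 loci of the list were higher in naive and 16 in primed PSCs. The median of the list was then 0.24, beside 0.25 over all loci. Of 53 clustered protocadherins, 35 were higher in naive and 2 in primed PSCs, with 30 and 6 after GC correction and 7 and 2 with the median set equal. Of the 136 marked tiles in their windows, 26 were higher in naive and 54 in primed PSCs, and of the 3 promoters tested none was higher in naive and 2 in primed. PCDHB5 changed by 1.55 ± 0.24, while PCDHAC2, whose promoter changed by -2.15 ± 0.32, changed by -1.50 ± 0.22. HOX genes, of which 9 of 39 were higher in naive and 2 in primed PSCs, had a median of 0.20, below that of all genes, and with GC correction 1 and 5 were called. Ribosomal protein genes had 38 of 80 higher in naive and 2 in primed PSCs, and a median of 0.45 that was 0.03 with GC correction (27 and 17). The median over all loci was 0.31, and -0.01 with GC correction.

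Along the chromosomes, the median change of marked tiles ran from -0.35 on chromosome 18 to 0.59 on chromosome 14. On chromosome 14, 35.7% of 16479 marked tiles were higher in naive and 18.8% in primed PSCs. The mean level of its tiles that were not marked, relative to the genome of the same library on the log2 scale, was 0.12 and 0.08 in the naive and -0.07, -0.04 and -0.05 in the primed libraries, and with these levels set equal the median change of its marked tiles was 0.44. Chromosome 19 stood at 0.40, at 0.40 with GC correction and at -0.12 with these levels set equal. What set the level of its tiles that were not marked was not tested. Chromosome 18 went from -0.35 to -0.18 with these levels set equal. Copy number was not tested in these libraries. The study's methods describe a check of it from Hi-C reads, which were not used here. That check is reported as normal for nearly every chromosome in naive PSCs. Its main exception was chromosome 19, altered in both cell types.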

How the data were processed

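H3K4me1 CUT&RUN was read from 1 deposited table. Per the study's methods and the submitters' processing notes, the authors trimmed reads with Trim Galore 0.5.0, aligned them to GRCh38 with Bowtie2 2.3.2, extended them to 300 bp and quantified 500 bp tiles in SeqMonk as deposited log2 RPM, with coverage outliers said to be left out. The deposited table covers every autosome without a gap, so which tiles that concerns is not known, and outlier tiles may remain. An empty tile holds the value of 0.9 reads, and whole reads came back for 100% of values (within 0.1 of a read), which gave the depths. Tiles share extended reads with their neighbours, and no input or IgG library was used here, so a tile's background is not known apart from its signal. Promoter capture Hi-C (PCHi-C) lists, in which the authors give CHiCAGO scores, served only as intervals, and those deposited score values were not used.

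Tiles on the 22 autosomes entered where the log2 RPM was above 0 in 2 or more libraries. Domains, promoters and loci used the log2 of the mean RPM over their tiles. Genes and contexts came from GENCODE 44. Each kind of feature was fitted with limma 3.58.1 (R 4.3.3; lmFit, eBayes with trend, two-sided, Benjamini-Hochberg, no covariate), with 3 residual degrees of freedom. For promoters and loci limma estimated an infinite prior, so their p-values rest on a spread pooled over all genes. Per-library values had a two-sided exact permutation test over 10 splits. The study's methods call the replicates biological, and how the cultures were kept apart is not given in the sources used here, so p-values measure the spread between these libraries. Alternatives included quantile normalization, GC correction, voom weights on the recovered reads, other filters and windows, and leaving out each library. Counting limits cover counting error only. The scripts were tested on simulated data.

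The members and gene lists were chosen with earlier results of these data known. Named were up to 4 genes a list, called in both fits first and then by the size of the locus change, and 5 in each direction of the domains and genes with the largest change and no overlap between groups, the widest domains, and the genes nearest to most called tiles. For the domains with the largest change, the mean log2 RPM over all libraries also had to be above 0. POU5F1, SOX2, OTX2, ALPP, WNT3 and TDGF1 were added after their values were seen. Some items that these rules name are not reported here.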

Additional observations from a re-analysis of the deposited data

How the results depend on the processing

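Alternatives were run 1 at a time. Scaling left the calls of tiles and domains within 1.5 times and moved those of genes. Promoters higher in primed PSCs numbered 1020 with quantile normalization and 1010 with GC correction, against 575. Loci numbered 2706 (naive) and 1117 (primed) with the median set equal, and loci higher in primed PSCs 4739 with quantile normalization, 5734 with GC correction and 722 from the mean of log2 values, against 1970. With starts of 1000 bp to each side, 441 promoters were higher in naive PSCs. Tile calls, in the order naive and primed, were 237949 and 220884 with no filter, 13786 and 23453 with a mean above 0, 24088 and 29740 with a level above 1, and 12998 and 66540 with 3 libraries required. With 2 naive libraries, no tile marked in naive PSCs alone can pass that last filter, so its split is set by the design. The near intergenic median of 0.75 was 0.44 in tiles without the Alu word, an alternative added after seeing the data as was chromosome-level scaling, and 0.39 on log2(RPM + 1). Domains in each library depended on the joining rule. Mean width, naive minus primed, was 470 bp with gaps of 3 tiles and -15.7 bp at a level above 1. The difference in the share over 5000 bp was 0.735 points with no gap, 3.75 with gaps of 3 and -0.113 at a level above 1. The cause of the other shifts was not tested.

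Leaving out 1 library gave 63723 to 129127 tiles higher in naive and 88136 to 135954 in primed PSCs, 27612 to 43306 and 35148 to 45432 domains, 387 to 1640 and 277 to 582 promoters, and 3649 to 8088 and 809 to 1914 loci. Without naive replicate 1 there were 63723 tiles higher in naive PSCs, 387 and 277 promoters and 809 loci higher in primed PSCs. Without naive replicate 2 there were 67363 tiles higher in naive PSCs, 456 and 300 promoters and 3649 loci higher in naive PSCs. Promoters higher in naive PSCs numbered 1640 without primed replicate 1 and 650 without primed replicate 3. A naive library left alone was assumed to vary like the primed ones. Context medians ranged from 0.68 to 0.88 near intergenic, -0.61 to -0.23 far intergenic, -0.19 to 0.17 in introns, 0.13 to 0.32 in exons, -0.30 to 0.00 in other genes and -0.09 to 0.20 at promoters, so the sign of the intron, promoter and other gene medians was not stable.

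The deviations of same-numbered libraries correlated at 0.03 in each of the 2 pairs. The deviations of the 2 naive libraries mirror each other, so these are not separate values. They cannot settle whether equal replicate numbers mark pairs. With the number as a block, where primed replicate 3 has no partner and adds nothing to the estimate, 95140 and 104436 tiles were called, and the block with GC correction gave 957 promoters and 5957 loci higher in primed PSCs.

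Of 3134 alternative values for 180 results on 92 genes and 20 domains, 2941 kept direction and side of the threshold, 169 lost and 21 gained the call, and 3 turned direction. These were the DUSP6 promoter with 5000 bp to each side (-0.91) and the S100A4 (-0.056) and TCF7L1 (0.18) loci with 20000 bp. Scaling by the chromosome's median was not run, since the median tile outside the marked set held 0 or 1 read. With 6.74 M to 26.6 M reads, a tile near the level of 0 held few reads in the shallow libraries, and small differences there were not detectable at this depth.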

Other observations

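Words of other factors were counted in the marked tiles, on both strands, as a description. The TEAD word GGAATG was in 25.8% of tiles higher in naive, 29.1% of those higher in primed PSCs and 27.4% of all marked tiles. The E-box word CAGCTG was in 20.1%, 24.3% and 22.5%, the FOX word TGTTTAC in 7.43%, 8.39% and 7.94%, and the AP-1 word TGANTCA in 14.9%, 16.6% and 15.3%. Tiles higher in naive PSCs held 6.95 CpG on average, those higher in primed PSCs 5.52 and all marked tiles 7.63.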
